A study of Mus musculus with 14 samples.

Results

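C1qa, C1qb, C1qc, Fcgr1, Csf1r, Emr1, Cd68 and Mrc1 are genes widely used to recognise macrophages, and their RNA was followed here in mast cell cultures that, by their labels, should hold few macrophages. The genes were taken by name from the array's own annotation, in which Emr1 is the older name of Adgre1, and are 8 of 27975 genes on the array. They are read by 12 probes. Of the 8 genes, 6 passed the filter on dim probes and were tested among 16012 genes, and C1qa and Mrc1 did not pass it.

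Macrophages take up and digest dying cells, microbes and antibody-coated particles, and each of these genes serves some step of that work. C1q, built of the C1qa, C1qb and C1qc chains, is the recognition molecule of the classical complement pathway. It binds antibody complexes and dying cells and activates the proteases C1r and C1s, which start the cleavage of C4, C2 and C3. Fcgr1 is the high-affinity receptor for IgG, Csf1r is the receptor through which the growth factors Csf1 and Il34 keep macrophages alive, Emr1 is the adhesion receptor seen by the F4/80 antibody, Cd68 is a glycoprotein of late endosomes and lysosomes, and Mrc1 is the mannose receptor. Mast cells share part of this equipment, such as lysosomes and the Fc gamma chain, which also serves their IgE receptor.

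The study compared mast cells from mice labelled Pla2g3 knockout or Pla2g3 wild-type, all under 1 strain label that names C57BL/6 first and a 129 strain after it, before and after maturation on fibroblasts. Pla2g3 encodes a secreted phospholipase A2. The immature cells are bone marrow-derived mast cells (BMMCs), grown with IL-3 for 4 to 6 weeks, of which over 97% carried Kit and the IgE receptor. The cocultured cells were BMMCs kept for 96 h on Swiss 3T3 cells, a mouse fibroblast line, with stem cell factor at 100 ng/ml, then trypsinized, reseeded and collected as nonadherent cells of over 99% stated purity. There were 3 arrays of knockout cocultured cells, 4 of wild-type cocultured cells, 4 of knockout BMMCs and 3 of wild-type BMMCs. Stem cell factor is given for cocultured cells only, so it and the fibroblasts cannot be told apart. Nothing in the labels tells separate cultures or mice from repeats of 1 culture, and each p-value therefore speaks only of the spread among the arrays at hand.

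The share of probes clear of background ran from 42.6% to 55.9% per array, and precision is limited by having only 14 arrays. The mast cell labels fit the markers, since Kit and Fcer1a were above background on all 14 arrays at levels of 6.35 or more and 7.59 or more, on the scale defined below. Of the 10 mast cell markers listed, 10 were counted above background on every array except knockout cocultured 2, where 8 were. Levels of all genes correlated across genes between replicates at 0.914 to 0.981 in knockout cocultured cells, 0.897 to 0.977 in wild-type cocultured cells, 0.937 to 0.976 in knockout BMMCs and 0.956 to 0.967 in wild-type BMMCs. A pair of cocultured arrays went against its labels. The array labelled knockout cocultured 3 correlated at 0.974 with wild-type cocultured 1 and at 0.918 and 0.914 with knockout cocultured 1 and 2. With wild-type cocultured 2 and 4 it correlated at 0.923 and 0.934, where knockout cocultured 1 had 0.932 with wild-type cocultured 1 and 4. The array labelled wild-type cocultured 3 correlated at 0.978 and 0.967 with knockout cocultured 1 and 2 and at 0.897 to 0.918 with the other wild-type cocultured arrays. Both lie on slide 4, which was scanned on another date than slides 1 to 3, and differences of the tested members and counts of the gene lists after coculture are given below with all arrays and without this pair. The Pla2g3 probe was higher on the arrays labelled knockout, at -2.32 ± 0.776 (SD, n = 3) in knockout and -3.48 ± 0.964 (SD, n = 4) in wild-type cocultured cells, and at -1.57 ± 0.28 (SD, n = 4) in knockout and -3.80 ± 0.867 (SD, n = 3) in wild-type BMMCs. The sources used here do not say whether this probe lies in the deleted stretch, so it does not check the labels. On this probe the slide 4 pair lay on the side of its labels, with knockout cocultured 3 at -1.97 and above background and wild-type cocultured 3 at -4.14 and not above it. The genotype names are those of the labels.

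Each level rests on a 60-base probe, and the probes are shown because the 3 C1q genes gave different pictures and Fcgr1 is read by 2 probes. The C1q probes lie close together on the minus strand of chromosome 4 (build mm9), at chr4:136436578-136436637 for C1qb, chr4:136445766-136445825 for C1qc and chr4:136452409-136452468 for C1qa. The Cd68 probe lies at chr11:69478314-69478373 on the minus strand. The Fcgr1 probes lie at chr3:96088140-96088199 (A_51_P296755) and chr3:96088398-96088461 (A_52_P47846), also on the minus strand. The brighter Emr1 probe lies at chr17:57622843-57622902 and the Mrc1 probe at chr2:14253304-14253364, both on the plus strand. Probes for C1qa and C1qb are printed whole, the others by their last 30 bases, and capitals mark a polyadenylation hexamer in the first Fcgr1 probe.
C1qa: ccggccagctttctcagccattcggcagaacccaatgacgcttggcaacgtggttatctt
C1qb: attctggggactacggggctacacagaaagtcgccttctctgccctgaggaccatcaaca
C1qc: tggccatttatcaataccttatgagactat
Cd68: agcatagttctttctccagctgttcacctt
Fcgr1, A_51_P296755: ctcttaAATAAAgcaaatatacagactgga
Fcgr1, A_52_P47846: gaaatacaacttagaagtccctttggtttc

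Levels are log2 signals set against the array's own 75th percentile, which lies at 0, and "well above background" is the call of the scanner software. Since each probe binds with its own strength, levels are compared between arrays and not between genes. Emr1 was well above background on 14 of 14 arrays, C1qb on 13, Cd68 on 13, Fcgr1 on 12 and Csf1r on 10. C1qc was above background on 7 arrays, Mrc1 on 1 and C1qa on 0. In bulk RNA, fewer macrophages in a culture and less of a transcript per cell cannot be told apart.

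**Figure D1:**
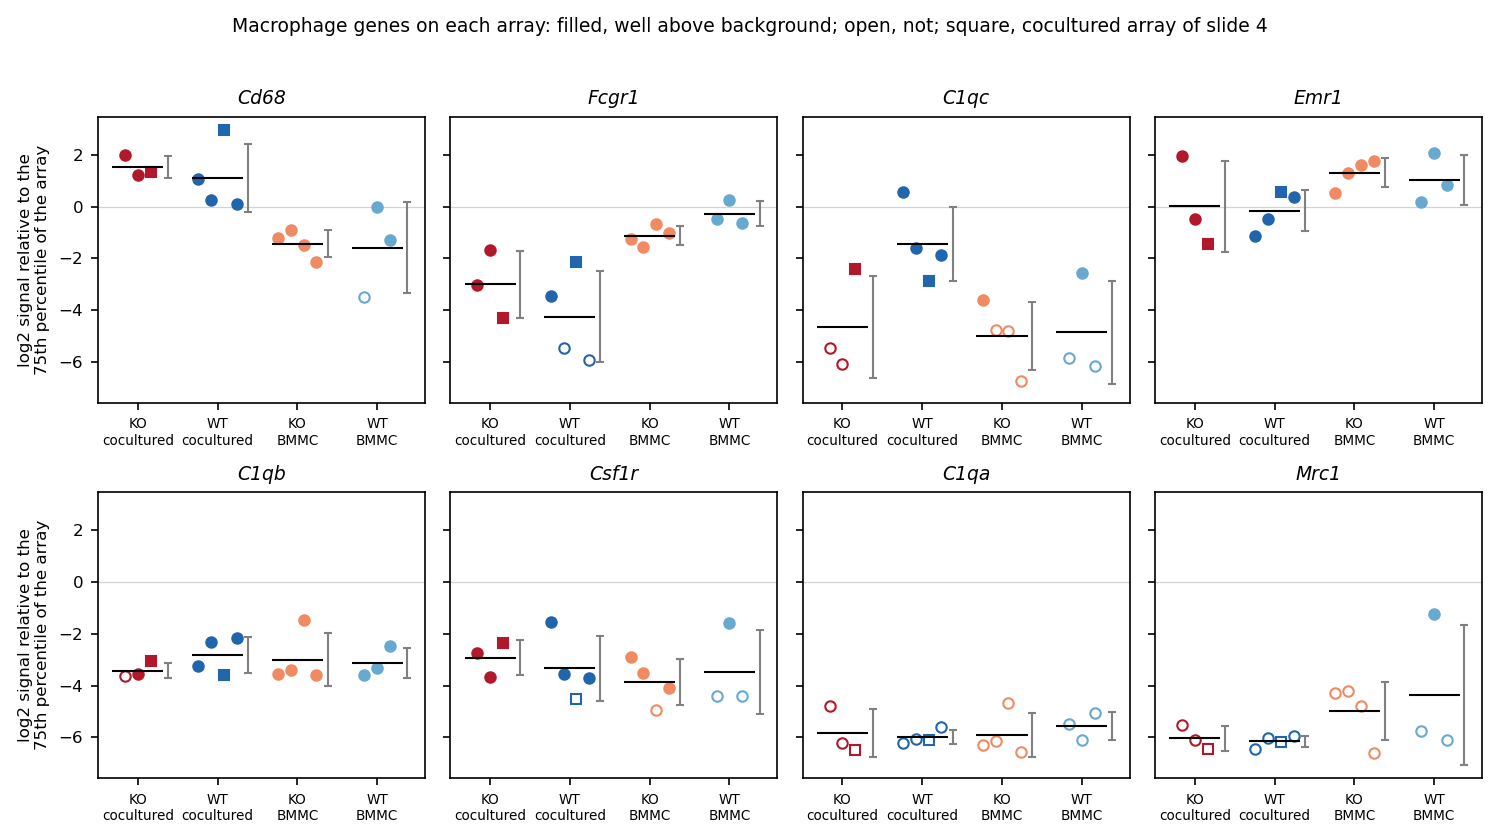
Levels of the 8 genes on the 14 arrays, each gene by its highest probe, on the vertical axis as log2 signal relative to the 75th percentile of the array. Groups run from knockout cocultured to wild-type BMMC, black lines are group means and grey bars 1 SD (n = 3 or 4). Filled symbols are well above background, open ones are not, and squares are the cocultured arrays of slide 4. The Cd68 points of both cocultured groups lie above those of their BMMCs, the Fcgr1 points lie below them, and the C1qc points split within most groups.

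Coculture changed 2 of the 6 tested genes past the threshold of an adjusted p under 0.05 (limma, Benjamini-Hochberg over 16012 genes). Cd68 was higher after coculture in both genotypes, 7.73-fold in knockout and 6.44-fold in wild-type cells. Fcgr1 was lower after coculture in wild-type cells, by 3.97 on the log2 scale, and its difference of -1.89 in knockout cells did not pass. The count was 1 of 6 in knockout cells, where 14.3% of all genes tested passed, 7.83% higher and 6.51% lower. It was 2 of 6 in wild-type cells, where 13% passed, 6.07% higher and 6.88% lower. Groups did not overlap for Cd68 and Fcgr1, 2 of 6, in knockout cells (28.1% of all genes) and for the same 2 of 6 in wild-type cells (25.4% of all genes).

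Cd68 carries its name as a macrophage stain but is a lysosomal glycoprotein. Its levels were 2.02, 1.21 and 1.34 in knockout cocultured cells, against -1.20, -0.89, -1.48 and -2.14 in knockout BMMCs. They were 1.07, 0.26, 2.98 and 0.10 in wild-type cocultured cells, against -3.48, -0.0012 and -1.28 in wild-type BMMCs. Every cocultured array of either genotype therefore lay above every BMMC array, and the only array on which the probe was not above background was wild-type BMMC 1. The log2 difference was 2.95 (SE 0.775, 95% interval 1.28 to 4.63, adjusted p = 0.0248) in knockout cells and 2.69 (SE 0.775, 95% interval 1.01 to 4.36, adjusted p = 0.0378) in wild-type cells. On slides that held both groups it was 3.22, 2.10 and 3.48 in knockout cells (slides 1, 2 and 4) and 1.07 and 1.45 in wild-type cells (slides 2 and 3), which was higher after coculture on all of them.

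The direction of the Cd68 difference held in every fit that was run, but its call did not. With slide as a fixed block it was 2.81 (adjusted p = 0.0518) in knockout and 2.57 (adjusted p = 0.0874) in wild-type cells, and with the replicate number as a block it was 2.66 (adjusted p = 0.0728) in knockout cells. With another background correction, normexp, it was 1.67 in knockout cells and 1.52 (adjusted p = 0.0739) in wild-type cells, where the call ended. Without the cocultured pair of slide 4 the difference was 3.04 (adjusted p = 0.0132) in knockout cells and 2.06 (adjusted p = 0.0621) in wild-type cells. In knockout cells the call ended without knockout cocultured 1 (2.70, adjusted p = 0.0969), knockout cocultured 2 (3.11, adjusted p = 0.0525), knockout BMMC 1 (3.02, adjusted p = 0.0503), knockout BMMC 3 (2.93, adjusted p = 0.0522) or knockout BMMC 4 (2.71, adjusted p = 0.0583). In wild-type cells it ended without wild-type cocultured 1 (2.70, adjusted p = 0.0702), wild-type cocultured 3 (2.06, adjusted p = 0.0651), knockout BMMC 1 (2.69, adjusted p = 0.0521), wild-type BMMC 1 (1.74, adjusted p = 0.162) or wild-type BMMC 3 (2.84, adjusted p = 0.0831). Without wild-type BMMC 2 it was larger, at 3.48 (adjusted p = 0.0188), so that among the arrays left out in turn the wild-type difference was lowest without wild-type BMMC 1 and highest without wild-type BMMC 2. Genotypes were not called different for Cd68, with a knockout minus wild-type difference of 0.42 (95% interval -1.25 to 2.10, adjusted p = 0.890) after coculture and 0.16 (95% interval -1.52 to 1.83, adjusted p = 1) in BMMCs.

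Relatives of Cd68 and other scavenger receptors, which bind modified lipoproteins and dying cells, were measured with it. Of 13 tested, 4 rose and 0 fell in knockout cells and 3 rose and 0 fell in wild-type cells, with medians of 0.57 and 0.52 against 0.07 and -0.05 for all genes. In the fit without the slide 4 pair 5 of 12 rose in knockout and 4 of 12 in wild-type cells, and 0 fell. Scarb2, a lysosomal membrane protein that carries a glucosidase to lysosomes, rose by 1.80 (adjusted p = 0.0058) in knockout and 1.97 (adjusted p = 0.00305) in wild-type cells. Olr1, a receptor for oxidised lipoprotein, was at least 5.08-fold higher in knockout and at least 2.28-fold higher in wild-type cocultured cells (adjusted p = 0.00383 and 0.0187), being not well above background on any BMMC array. Axl, a receptor for the bridge proteins that mark dying cells, was at least 1.64-fold and 3.13-fold higher in the same order (adjusted p = 0.0231 and 0.00616). Such bounds set the cocultured mean against the lowest signal called above background on each BMMC array. Olr1 and Axl passed the filter on dim probes through the cocultured arrays alone and could hardly be called lower. Genes given below by a bound as higher after coculture were likewise dark on all BMMC arrays of that genotype and could hardly fall there. Fibroblast markers also rose after coculture, as given below, and their part in these differences was not tested.

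Fcgr1 fell after coculture in wild-type cells. With the brighter probe its levels were -3.46, -5.48, -2.13 and -5.92 in wild-type cocultured cells, against -0.47, 0.27 and -0.63 in wild-type BMMCs. Wild-type cocultured 2 and 4 were not above background, and every cocultured array lay below every BMMC array. The log2 difference was -3.97 (SE 0.803, 95% interval -5.71 to -2.24, adjusted p = 0.00626), it was -4.68 (adjusted p = 0.000352) without the cocultured pair of slide 4, and on slides 2 and 3 it was -3.73 and -5.07. The call held in every fit that was run. The size did not, since it was -1.29 with another background correction.

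In knockout cells the brighter probe was at -3.02, -1.69 and -4.30 after coculture, against -1.24, -1.55, -0.67 and -1.0 in BMMCs. The groups did not overlap, but knockout cocultured 2 lay only just below knockout BMMC 2. The difference was -1.89 (SE 0.803, 95% interval -3.62 to -0.15, adjusted p = 0.139), and -1.24 (adjusted p = 0.157) without the cocultured pair of slide 4. It was -1.77, -0.14 and -3.30 on slides 1, 2 and 4, so the size differed widely between slides.

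The second Fcgr1 probe, which passed on 5 arrays, was not above background on any of the 4 wild-type cocultured arrays and was at -3.32, -2.90 and -3.50 in wild-type BMMCs, at least 1.78-fold lower after coculture (adjusted p = 0.00704 in a fit of every probe). In knockout cells it was above background on 1 of 4 BMMC and 1 of 3 cocultured arrays. Its difference there, -1.24 (adjusted p = 0.252), was therefore mostly between readings not above background. Knockout BMMCs lay below wild-type BMMCs without overlap on both Fcgr1 probes, but the difference of -0.84 with the brighter probe (95% interval -2.58 to 0.90, adjusted p = 1) was not called. Fcgr1 was the only 1 of 6 genes whose BMMC groups did not overlap, against 3.93% of all genes.

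The other IgG receptors and their signalling partners showed no such loss. Of 7 tested genes of this list, 0 rose and 0 fell in either genotype, with medians of 0.23 and 0.20. Fcer1g, the Fc gamma chain shared by Fcgr1 and the IgE receptor, averaged 6.42 ± 0.246 (SD, n = 3) in knockout cocultured cells and 5.68 ± 0.417 (SD, n = 4) in knockout BMMCs, a difference of 0.74 (adjusted p = 0.114). Fcgr2b, the inhibitory receptor, averaged 3.66 ± 0.129 (SD, n = 3) and 2.84 ± 0.658 (SD, n = 4) in the same groups, a difference of 0.82 (adjusted p = 0.178). Both were above background on all 14 arrays. Without the slide 4 pair, 0 of 6 passed in knockout cells and 1 of 6 rose in wild-type cells. Without wild-type cocultured 3, 1 of 7 rose in wild-type cells, Fcgrt, the neonatal receptor that recycles IgG, with 4.5 (adjusted p = 0.00567), against 3.17 (adjusted p = 0.125) on all arrays.

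The 3 C1q chains are made from neighbouring genes and assemble into 1 molecule, but their probes did not move together. C1qa was not above background on any array, with group means of -5.83 in knockout and -5.99 in wild-type cocultured cells and -5.91 in knockout and -5.56 in wild-type BMMCs. C1qb was low, at -3.42 ± 0.306 (SD, n = 3) and -2.82 ± 0.696 (SD, n = 4) in knockout and wild-type cocultured cells and -3.01 ± 1.03 (SD, n = 4) and -3.12 ± 0.587 (SD, n = 3) in knockout and wild-type BMMCs. Its coculture differences were -0.41 (95% interval -1.54 to 0.73, adjusted p = 0.658) in knockout and 0.31 (95% interval -0.83 to 1.44, adjusted p = 0.784) in wild-type cells. They were -0.58 (adjusted p = 0.494) and 0.56 (adjusted p = 0.525) without the slide 4 pair. The highest C1qb level, -1.47, was on knockout BMMC 3, while the other knockout BMMC arrays lay between -3.59 and -3.40. Knockout BMMC 3 lies on slide 3, as do wild-type cocultured 4 (-2.14), wild-type cocultured 2 (-2.32) and wild-type BMMC 3 (-2.46), the next highest. The arrays of the other slides lay between -3.64 and -3.07. Knockout cocultured cells had no array on slide 3, so group and slide are partly mixed in the C1qb differences.

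C1qc alone varied widely. Its levels were -5.48, -6.09 and -2.39 in knockout cocultured cells and 0.55, -1.59, -2.86 and -1.85 in wild-type cocultured cells. In BMMCs they were -3.59, -4.78, -4.82 and -6.76 in knockout and -5.84, -2.55 and -6.16 in wild-type cells. It was above background on all 4 wild-type cocultured arrays and on 1 array of each other group, namely knockout cocultured 3, knockout BMMC 1 and wild-type BMMC 2. Wild-type BMMC 2 overlapped the wild-type cocultured range.

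In wild-type cells C1qc differed by 3.41 after coculture (SE 1.12, 95% interval 0.99 to 5.83, adjusted p = 0.0634), just short of the threshold. It passed without wild-type BMMC 2 (4.56, adjusted p = 0.0289), without wild-type cocultured 3 (3.89, adjusted p = 0.0450), without knockout cocultured 3 (3.41, adjusted p = 0.0355) and without the slide 4 pair (3.89, adjusted p = 0.0206). It passed in no other processing alternative, where the difference fell as low as 0.48 and the adjusted p rose as high as 0.586. With 1 array left out it ran from 2.75 to 4.56, with an adjusted p of up to 0.221. Within slides 2 and 3 the difference was 3.11 and 4.44. In knockout cells it was 0.33 (95% interval -2.09 to 2.75, adjusted p = 0.881), and -0.80 (adjusted p = 0.634) without the pair, from -1.89 and -1.31 on slides 1 and 2 and 4.37 on slide 4. After coculture the probe was above background on the 4 arrays labelled wild-type and on knockout cocultured 3. Wild-type cocultured 3, at -2.86, was the lowest of the wild-type arrays but lay above knockout cocultured 1 and 2.

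Most genes beside the C1q cluster were not called, and of all genes tested 14.3% were called in knockout and 13% in wild-type coculture. Of 25 other tested genes with probes within 1 Mb, 0 rose and 1 fell in knockout cells and 1 rose and 1 fell in wild-type cells after coculture. The gene that rose, named after its value was seen, was Hspg2, a basement membrane proteoglycan, with 2.96 (adjusted p = 0.0174). The nearest tested genes were Kdm1a, a histone demethylase, with differences of 0.75 (adjusted p = 0.200) and 0.48 (adjusted p = 0.467) in knockout and wild-type cells, and Zbtb40, a zinc finger gene, with -0.76 (adjusted p = 0.0320) and -1.17 (adjusted p = 0.00306).

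Downstream of C1q, some genes of the classical pathway rose and most were not called. Of 15 tested genes of the complement list, 4 rose and 0 fell in knockout cells and 5 rose and 0 fell in wild-type cells, with medians of 0.20 and 0.20. Leaving out the slide 4 pair, 4 of 14 rose and 0 fell in knockout cells and 5 of 14 rose and 1 fell in wild-type cells. C3, the central component, had levels of 2.41, 3.20 and 4.33 in knockout cocultured cells, against -3.00, -2.52, -1.63 and -3.12 in knockout BMMCs. It had 4.76, 7.44, 2.10 and 5.66 in wild-type cocultured cells, against -2.92, 0.07 and -1.66 in wild-type BMMCs. All cocultured arrays lay above all BMMC arrays, with differences of 5.88 (adjusted p = 0.00295) in knockout and 6.49 (adjusted p = 0.00143) in wild-type cells. C1ra, the protease that C1q activates, was at least 7.63-fold higher in knockout and 32.2-fold higher in wild-type cocultured cells (adjusted p = 0.00467 and 0.00029). C1s1, the next protease, was at least 3.01-fold higher in knockout and 16-fold higher in wild-type cocultured cells (adjusted p = 0.0456 and 0.00459). Neither protease was above background on a BMMC array, so both passed the filter on dim probes through the cocultured arrays alone, and Serping1, the inhibitor of C1r and C1s, was not above background on any array.

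**Figure D2:**
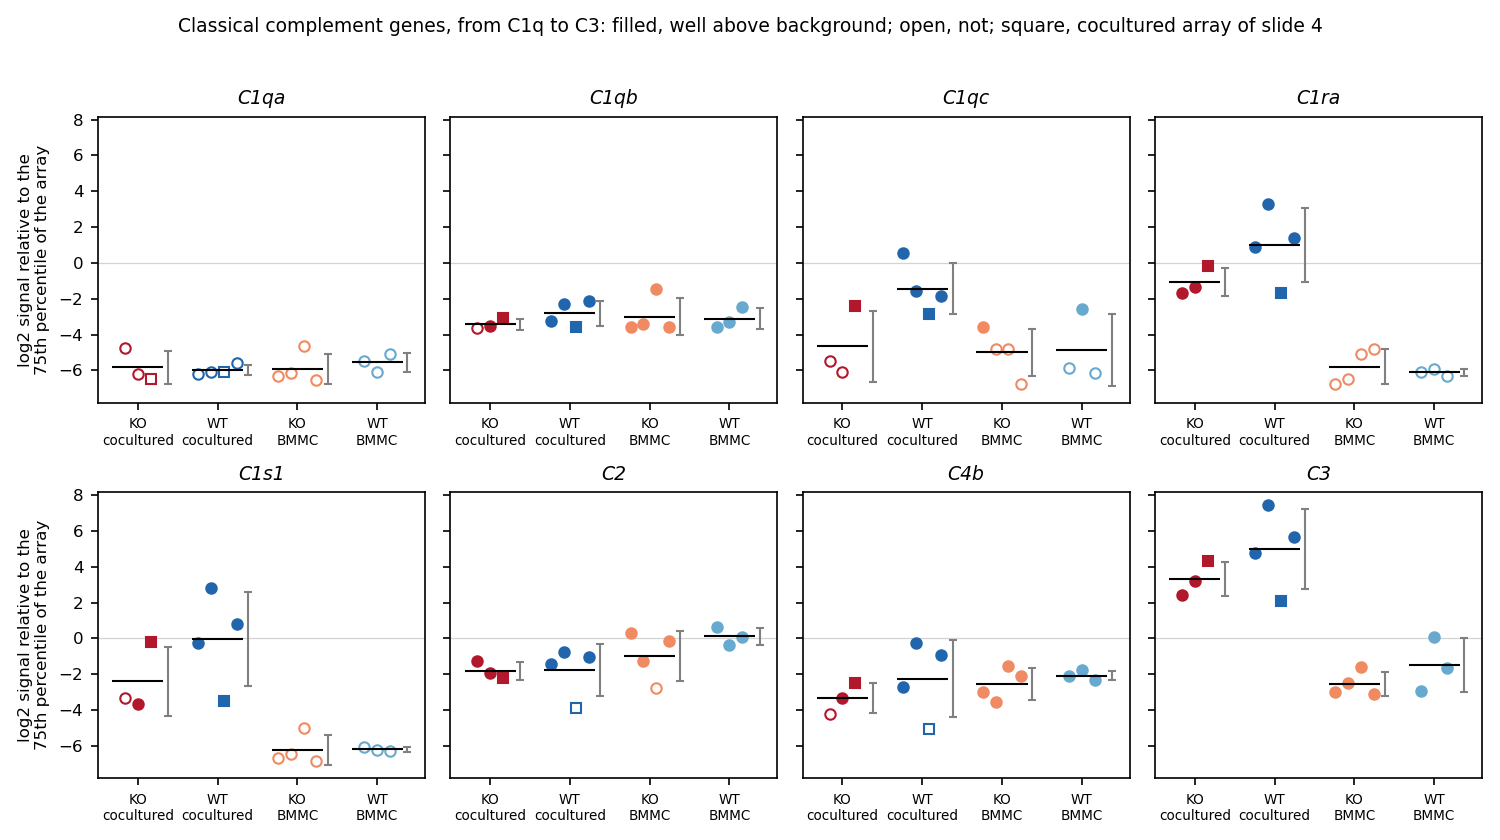
Levels of 8 classical complement genes on the 14 arrays, from the C1q chains to C3, on the vertical axis as log2 signal relative to the 75th percentile of the array, with group means (black) and 1 SD (grey, n = 3 or 4). Filled symbols are well above background, open ones are not, and squares are the cocultured arrays of slide 4. C1ra, C1s1 and C3 lie above their BMMC groups on every cocultured array, C1qa is open on all arrays, and C1qc is filled on all 4 wild-type cocultured arrays.

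Fibroblast markers rose after coculture, as Cd68 and some complement genes did. Of 21 tested fibroblast markers, 11 rose and 0 fell in knockout cells and 17 rose and 0 fell in wild-type cells, with medians of 3.11 and 5.25. Of the 22 listed, 3 to 6 were above background per BMMC array and 13 to 21 per cocultured array. Many therefore passed the filter on dim probes through the cocultured arrays and could hardly fall. The number that rose was 12 of 20 in knockout and 19 of 20 in wild-type cells without the slide 4 pair. Dcn, a matrix proteoglycan, was at least 55.9-fold higher in knockout and 146-fold higher in wild-type cocultured cells. The summed linear level of the 22 listed markers, in multiples of the 75th percentile, was 223 to 300 in knockout and 200 to 643 in wild-type cocultured cells, against 71.7 to 153 in knockout and 20.2 to 125 in wild-type BMMCs. On wild-type cocultured 1 to 4 the sum was 341, 643, 200 and 305, and Cd68 was highest, at 2.98, where the sum was lowest. On knockout cocultured 1 to 3 the sum was 300, 271 and 223, and Cd68 was highest, at 2.02, where the sum was highest. Thy1 was above background on no array. The part of fibroblast RNA in the complement, Cd68 and C1qc differences was not tested.

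Csf1r, the receptor on which macrophages depend, was low throughout. The probe that stood for it was at -2.75, -3.67 and -2.34 in knockout and -1.54, -3.56, -4.50 and -3.70 in wild-type cocultured cells. It was at -2.89, -3.51, -4.96 and -4.11 in knockout and -4.41, -1.58 and -4.40 in wild-type BMMCs. The groups overlapped in each comparison. Its coculture difference was 0.95 (95% interval -0.77 to 2.67, adjusted p = 0.466) in knockout and 0.14 (95% interval -1.58 to 1.85, adjusted p = 0.944) in wild-type cells, and without the slide 4 pair it was 0.66 (adjusted p = 0.626) and 0.53 (adjusted p = 0.713). Of its other probes, A_52_P602091 was above background on 5 arrays and A_52_P570471 on 0.

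Ligands and signalling partners of Csf1r were tested beside it. Of 10 tested genes of this axis, 1 rose and 1 fell in knockout cells and 2 rose and 1 fell in wild-type cells, with medians of 0.27 and -0.08. In each genotype 2 of 9 rose and 1 fell without the slide 4 pair. Csf1, its ligand, averaged 4.06 ± 0.491 (SD, n = 3) in knockout cocultured cells and 2.40 ± 0.597 (SD, n = 4) in knockout BMMCs, a rise of 1.66 (adjusted p = 0.0299), and 4.86 ± 0.87 (SD, n = 4) in wild-type cocultured cells and 2.46 ± 0.228 (SD, n = 3) in wild-type BMMCs, a rise of 2.41 (adjusted p = 0.0042). Socs1, a feedback inhibitor of cytokine receptors, fell by 5.28 (adjusted p = 2.24e-06) in knockout and by 5.11 (adjusted p = 3.02e-06) in wild-type cells. Csf2, a growth factor for granulocytes and macrophages, was at least 3.68-fold higher in wild-type cocultured cells (adjusted p = 0.0181). Cultured fibroblasts are a known source of Csf1, and the share of each cell type in its level was not tested.

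Emr1 was above background everywhere. Its levels were 1.95, -0.47 and -1.45 in knockout and -1.12, -0.49, 0.59 and 0.39 in wild-type cocultured cells. They were 0.53, 1.32, 1.62 and 1.78 in knockout and 0.20, 2.08 and 0.84 in wild-type BMMCs. Both BMMC groups had the higher means, but knockout cocultured 1 lay above all knockout BMMCs, and wild-type cocultured 3 and 4 lay within the wild-type BMMC range. The coculture difference was -1.30 (95% interval -2.85 to 0.25, adjusted p = 0.251) in knockout and -1.20 (95% interval -2.75 to 0.35, adjusted p = 0.325) in wild-type cells. The knockout difference passed without knockout cocultured 1 (-2.27, adjusted p = 0.0440), the array with the highest cocultured level, and was -0.57 (adjusted p = 0.593) without the slide 4 pair. On slides it was 1.43, -1.79 and -3.23 in knockout cells (slides 1, 2 and 4), so that even the direction varied, and -3.21 and -0.89 in wild-type cells (slides 2 and 3). The wild-type difference was -1.45 (adjusted p = 0.152) without the slide 4 pair.

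The second Emr1 probe was above background on 1 array, knockout BMMC 4, at -3.92. Among 5 tested relatives of Emr1 in the adhesion receptor family, 0 passed in knockout cells and 1 rose in wild-type cells. That gene was Adgrl2, a latrophilin, at least 3.10-fold higher in wild-type cocultured cells (adjusted p = 0.0241). Its log2 difference was 3.12 on all arrays and 2.73 without wild-type BMMC 2, where it was no longer called (adjusted p = 0.105). Without the slide 4 pair 1 of 5 fell in knockout cells, Adgrl1, another latrophilin, with -0.81 (adjusted p = 0.0213) against -0.60 (adjusted p = 0.210) on all arrays, and 1 of 5 rose in wild-type cells.

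Mrc1 was above background on 1 of 14 arrays, wild-type BMMC 2, at -1.25. The other arrays read from -6.47 to -5.50 in knockout and -6.44 to -5.95 in wild-type cocultured cells, and from -6.62 to -4.22 in knockout BMMCs, with -5.76 and -6.11 on the other wild-type BMMC arrays. The gene was therefore not tested. Other macrophage lectins were more often measured, and of 9 tested, 3 rose and 0 fell in knockout cells and 2 rose and 0 fell in wild-type cells, with medians of 1.24 and 2.19. Clec4d, a receptor for mycobacterial glycolipid, rose by 5.20 (adjusted p = 0.0133) in knockout and 4.05 (adjusted p = 0.0412) in wild-type cells. Clec4e, its partner receptor, was at least 49.5-fold higher in knockout cocultured cells (adjusted p = 0.0102). Clec10a, a galactose-binding lectin, rose by 2.47 (adjusted p = 0.0199) in wild-type cells. Without the slide 4 pair 4 of 9 rose in knockout and 3 of 9 in wild-type cells, where Clec4d was no longer called (3.23, adjusted p = 0.0717) and Clec4e was (adjusted p = 0.0262).

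Between genotypes, 0 of the 6 tested genes passed in cocultured cells, in BMMCs or in the test of whether coculture acted differently by genotype, where 0%, 0% and 0% of all genes passed with limma. At an unadjusted p under 0.05 there were 606, 170 and 131 genes. Among cocultured cells the groups overlapped for all 6, against 1.77% of all genes without overlap. The C1qc difference was -3.21 (95% interval -5.63 to -0.79, adjusted p = 0.796), and its interaction was -3.08 (95% interval -6.50 to 0.34, adjusted p = 0.993). The Fcgr1 difference was 1.24 (95% interval -0.49 to 2.98, adjusted p = 0.796), and its interaction was 2.09 (95% interval -0.37 to 4.54, adjusted p = 0.993).

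These genotype values turned on the slide 4 pair. The pair was picked out because its expression went against its genotype labels, so leaving it out widens genotype differences by itself. The p-values of that fit do not allow for this choice. The remaining cocultured arrays lie on slides 1 and 2 for knockout and on slides 2 and 3 for wild-type cells. Only slide 2 then holds both genotypes, so genotype and slide are largely mixed in that fit. Without the pair C1qc was lower in knockout than in wild-type cocultured cells by a log2 difference of -4.82 (SE 1.16, adjusted p = 0.0144), and Fcgr1 was higher by 2.60 (SE 0.658, adjusted p = 0.0175). The Fcgr1 interaction was then 3.44 (adjusted p = 0.0295) and the C1qc interaction -4.68 (adjusted p = 0.0654). Within slide 2 the C1qc difference was -6.64 and the Fcgr1 difference 1.77, and within slide 4 they were 0.47 and -2.17. The background rose as well, since without the pair 25.9% of 15595 genes passed between genotypes after coculture and 13.3% in the interaction, where 2 of 6 and 1 of 6 of these genes passed. Coculture itself then gave 31.5% in knockout and 24.1% in wild-type cells, with 1 and 2 of the 6 genes. Fibroblast markers moved with the genotype too, 0 of 20 being higher and 14 lower in knockout cocultured cells without the pair, and their part was not tested.

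**Figure D3:**
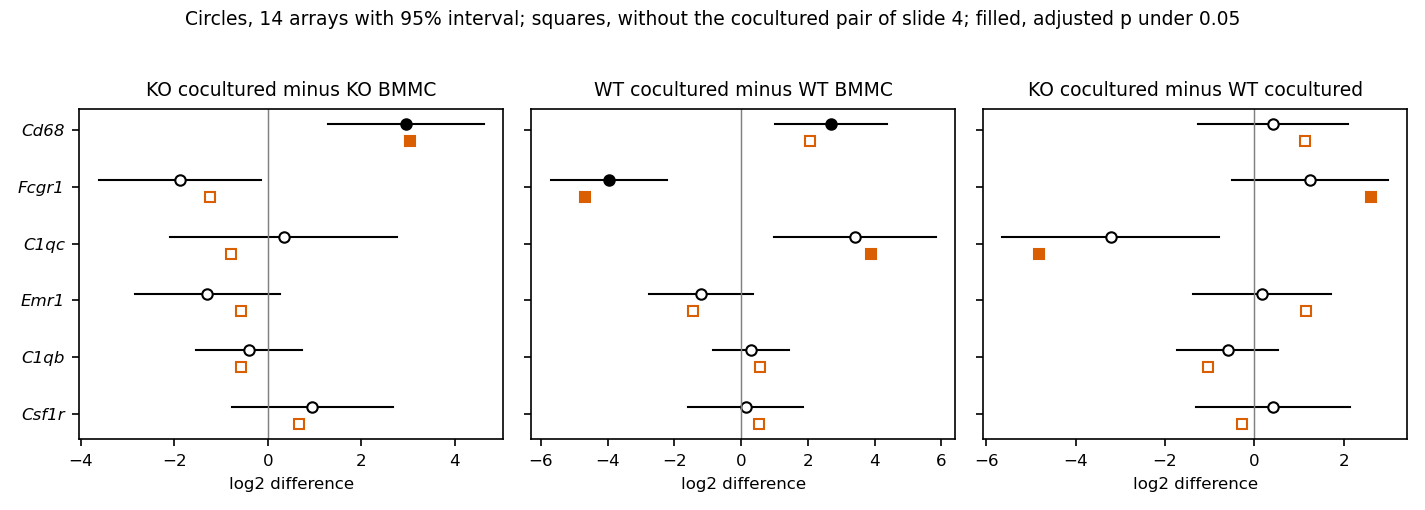
Log2 differences of the 6 tested genes on the horizontal axis, in panels for knockout cocultured minus knockout BMMC, wild-type cocultured minus wild-type BMMC and knockout minus wild-type cocultured cells. Circles are the fit of 14 arrays with 95% intervals, squares the fit without the cocultured pair of slide 4, and filled symbols have an adjusted p under 0.05. Cd68 lies right of 0 in both coculture panels and Fcgr1 left of it, and in the genotype panel the C1qc and Fcgr1 squares at -4.82 and 2.60 are filled while their circles are open.

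Other macrophage and monocyte markers were read beside the 8 genes. Of 25 listed, 18 were tested, and 1 rose and 1 fell in each genotype after coculture. Cd14, a receptor for bacterial lipopolysaccharide, rose by 2.51 (adjusted p = 0.0177) in knockout and 4.04 (adjusted p = 0.00104) in wild-type cells. Cx3cr1, the fractalkine receptor of monocytes, fell by 3.96 (adjusted p = 0.00387) and 3.16 (adjusted p = 0.0122). The medians were -1.13 and -0.29, and the wild-type one was 1.47 without wild-type BMMC 2. Without the slide 4 pair 2 of 18 rose and 2 fell in knockout cells and 2 rose and 1 fell in wild-type cells. Itgam, Siglec1, Vsig4, Folr2 and Nos2 were above background on no array.

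The summed linear level of the 25 markers was 6.84 to 11.9 in knockout and 7.74 to 16.4 in wild-type cocultured cells. It was 10.8 to 33.1 in knockout BMMCs and 11.8, 142 and 16.5 on the 3 wild-type BMMC arrays. The sum, in which bright genes weigh most, was therefore not higher after coculture. The number of the 25 markers above background went otherwise in wild-type cells. It was 12 to 17 per wild-type cocultured array, against 7, 19 and 8 on wild-type BMMC 1, 2 and 3. In knockout cells it was 9 to 13 per cocultured array and 7 to 17 per BMMC array. Wild-type BMMC 2, with a sum of 142, stood apart, and some of its markers are named here after their values were seen. On that array Lyz2, the macrophage lysozyme, was at 5.6, Ctss, a lysosomal cysteine protease, at 4.64, and Trem2, a lipid receptor of tissue macrophages, at 1.58, against 0.64, -3.30 and -5.92 on wild-type BMMC 1 and 1.42, -5.40 and -6.11 on wild-type BMMC 3. It was also the only array with Mrc1 above background and had the highest wild-type BMMC levels of C1qc, Csf1r, Emr1, Cd68 and Fcgr1. Knockout BMMC 1, 2 and 4 were intermediate, with Ctss at 2.56, 1.98 and 1.97 and Trem2 at -0.38, -0.79 and -1.37, and knockout BMMC 3 was low at -2.99 and -4.94.

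**Figure D4:**
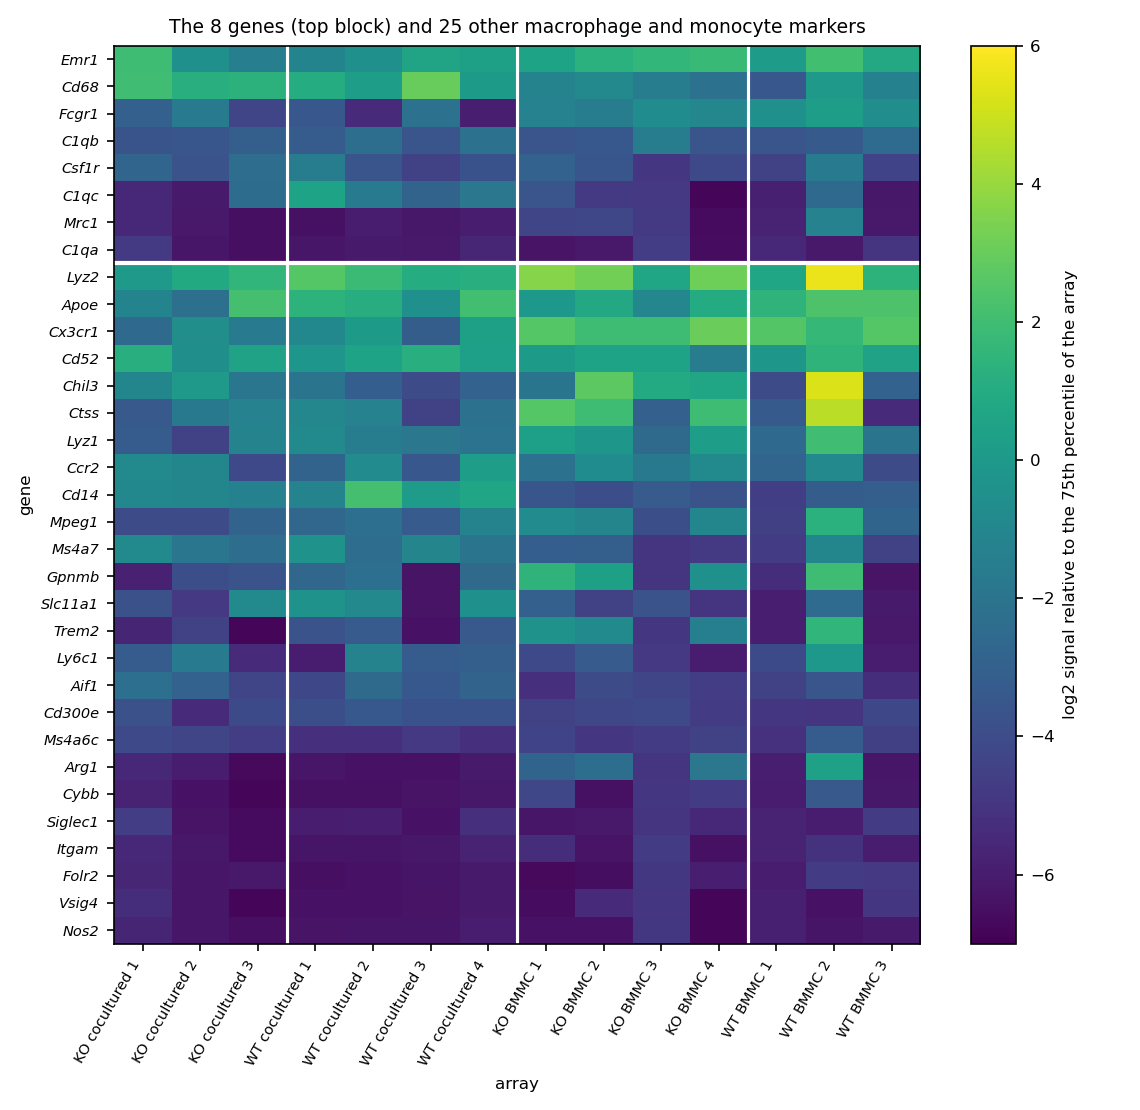
Levels of the 8 genes (top block) and of 25 other macrophage and monocyte markers (rows) on the 14 arrays (columns, knockout cocultured to wild-type BMMC, white lines between groups), coloured by log2 signal relative to the 75th percentile of the array. Wild-type BMMC 2 has the brightest column in the lower block, with Lyz2 at 5.6 and Ctss at 4.64, and the lowest rows stay near background on most arrays.

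Transcription factors of macrophages were read beside their targets. Of 10 tested, 2 rose and 0 fell in each genotype, and without the slide 4 pair 2 of 10 rose in knockout and 3 of 10 in wild-type cells. Cebpb, which drives inflammatory genes, rose by 2.35 (adjusted p = 0.00124) in knockout and 1.62 (adjusted p = 0.00934) in wild-type cells. Klf4, a zinc finger factor of monocytes and also of other tissues, rose by 4.83 (adjusted p = 0.00391) and 5.97 (adjusted p = 0.000884).

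Promoters were searched for letters that factors of this lineage are known to bind. PU.1, the product of Spi1, binds purine-rich ETS sites, represented here by GAGGAA or, on the other strand, TTCCTC. Of the 8 genes, 5 matched a RefSeq promoter (GRCm38.p6), and these letters stood in the 250 bases before the start in 5 of 5, against 23.3% of 32851 promoters. TGANTCA, the AP-1 site, stood in 1 of 5, with 2 matches in Cd68, against 6.75%. CANNTG, the E-box, stood in 5 of 5, against 66.2%. Genes called or near the threshold are shown, Cd68 at chr11:69666171-69666420, Fcgr1 at chr3:96293970-96294219 and C1qc at chr4:136892915-136893164, all on the minus strand, 5′ to 3′ up to the start, with GAGGAA or TTCCTC in capitals.
Cd68: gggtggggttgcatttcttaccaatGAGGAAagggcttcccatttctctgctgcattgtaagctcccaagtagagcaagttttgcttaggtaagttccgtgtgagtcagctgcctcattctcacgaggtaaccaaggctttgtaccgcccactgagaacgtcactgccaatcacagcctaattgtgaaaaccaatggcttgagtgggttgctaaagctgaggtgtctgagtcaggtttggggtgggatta
Fcgr1: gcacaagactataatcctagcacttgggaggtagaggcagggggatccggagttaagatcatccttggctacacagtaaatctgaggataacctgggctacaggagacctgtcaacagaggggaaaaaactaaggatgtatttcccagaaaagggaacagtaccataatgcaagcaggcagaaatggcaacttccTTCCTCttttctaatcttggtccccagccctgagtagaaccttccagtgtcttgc
C1qc: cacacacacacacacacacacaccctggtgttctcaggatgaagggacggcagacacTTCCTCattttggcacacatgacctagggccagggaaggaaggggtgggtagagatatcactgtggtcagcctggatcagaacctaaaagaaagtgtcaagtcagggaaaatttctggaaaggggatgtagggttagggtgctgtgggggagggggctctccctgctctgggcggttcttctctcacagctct
The nearest match lay 225 bases before the start in Cd68, 55 in Fcgr1 and 193 in C1qc.

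Across the 14 arrays, which share groups and slides, the genes most like each member are given as a description by Pearson's r. Cd68 ran with Atf3, a stress-induced transcription factor (0.932), Acsl4, which loads fatty acids onto coenzyme A (0.932), and Mlkl, the executor of necroptosis (0.931). Fcgr1 ran with A130010J15Rik (0.965), Klhl2 (0.962) and Snx25 (0.958). C1qc ran with Zfp503 (0.894), Ifit3, an interferon-induced gene (0.879), and Ly9 (0.878). Emr1 ran with Nap1l3 (0.894), Csf1r with Ly96 (0.862) and C1qb with Insl5 (0.944). Of the members themselves, Cd68 and Fcgr1 had r of -0.474 for levels and 0.551 for deviations from the group means, and C1qc and Csf1r had 0.588 and 0.831.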

How the data were processed

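RNA of 14 samples, 450 ng each, was hybridised to single-colour Agilent mouse arrays. Per the file headers and the submitters' processing notes, the authors read each spot with Agilent Feature Extraction 9.5.1.1 and deposited its processed intensity, with no scaling between arrays. Intensities were converted to log2 and lowered by the log2 of their own array's 75th percentile (69.4 to 176 units), after control spots and 74 to 326 outlier spots per array were left out. Of 41174 probes, 24844 were named by accession and 7855 by symbol in the RefSeq gene list, while 8475 kept the file's name. A filter passed 23616 probes that 3 or more arrays called above background, of which 32 were dropped for missing values, and each gene was read by its brightest probe on average. Differences were fitted with limma 3.58.1 in R 4.3.3 with the data.table package (1.17.8), on 14 arrays in 4 groups with 5 contrasts, two-sided, with Benjamini-Hochberg adjustment over 16012 genes and calls at an adjusted p under 0.05. Lower bounds of a fold used the lowest signal called above background on each dark array. The script was tested on simulated data. Figures were drawn with matplotlib 3.10.9 and pandas 2.3.3.

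The members, the gene lists, the tests and the alternatives were chosen with earlier results of these data known. Named were all 8 genes and, per list and contrast, up to 4 called genes by adjusted p, or, in a list with no call, up to 2 genes, and some were left out. The per-member likeness named up to 3 genes with the highest r. Alternatives were normexp background correction (offset 50), quantile and median scaling, other filters, every probe, slide as a fixed or random block, replicate number as a block, an intensity trend, each array left out in turn, and the cocultured pair of slide 4 left out. Same-numbered knockout and wild-type BMMC arrays deviated together from their group means (r = 0.197, 0.497 and 0.489 across genes). These arrays also share slides 1, 2 and 3, so paired samples and an effect of the slide cannot be told apart. Knockout BMMC 4 and wild-type BMMC 1, of unequal number and slide, gave 0.358, and the other unequal numbers gave -0.303 to 0.134. Same-numbered cocultured arrays did not (r = -0.43, -0.149 and -0.544), nor did BMMC and cocultured arrays (r of -0.034 to 0.094 in knockout and -0.059 to 0.121 in wild-type cells).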

Additional observations from a re-analysis of the deposited data

Results flagged for a closer look

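Of 24 groups of 4 arrays looked at, 2 for each of the 12 probes, 1 held an array whose gap to the nearest other array, divided by the range of the group, passed Dixon's 95% critical value for 4 arrays, and chance gives about 1 in 20. C1qb was at -1.47 on knockout BMMC 3, a ratio of 0.908, while the other knockout BMMC arrays lay between -3.59 and -3.40. On the same array C1qa, which was not above background anywhere, had its highest level, at -4.66, 42.6% of probes were above background, the lowest share of the 14 arrays, and the lowest signal called above background was -2.75, against -4.56 to -3.48 on the other arrays. Knockout BMMC 3 was also the only knockout BMMC array on slide 3, whose other arrays held the next highest C1qb levels, from -2.46 to -2.14. The part of background and slide in the C1qb level was not tested.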

How the results depend on the processing

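The number of genes called after coculture was 2297 in knockout and 2074 in wild-type cells. It was 906 and 898 with normexp background correction, 1417 in knockout cells with median scaling, 1356 there without the filter on dim probes, and 4919 and 3753 without the cocultured pair of slide 4. Leaving out 1 array at a time gave 1075 to 3162 and 1134 to 2716. Between genotypes the count was 0, but 4045 after coculture and 2076 in the interaction without that pair, and 1 in BMMCs with quantile normalization and with a filter on whole groups. Leaving out 1 array gave 0 to 0 after coculture, 0 to 2 in BMMCs and 0 to 0 in the interaction. Higher calls were 54.6% in knockout cells, and 31.0% with normexp. Median scaling moved the median of all genes from -0.05 to -0.23 in wild-type coculture, 0.05 to 0.31 between genotypes after coculture and 0.14 to 0.34 in the interaction. Equal replicate numbers deviated together in the BMMC comparison only. With the replicate number as a block, 1235 genes and 0 members were called in knockout coculture, Cd68 differing by 2.66 (adjusted p = 0.0728), and the block changed no other call of a member. Of the 6 genes, 1 was called in knockout coculture, 0 with slide as a fixed block and 0 to 1 without 1 array. In wild-type coculture 2 were called, 1 with normexp, median scaling, no filter or slide as a fixed block, and 1 to 3 without 1 array. Between genotypes 2 were called after coculture and 1 in the interaction without the pair, and 0 to 0 without 1 array, in BMMCs too. Cd68 in wild-type coculture was 1.52 (adjusted p = 0.0739) with normexp, 2.51 (0.0729) with median scaling, 2.69 (0.0597) without the filter and 2.57 (0.0874) with slide as a fixed block, and 2.81 (0.0518) in knockout cells with that block. No call reversed its direction. Causes were not tested.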

Other observations

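Mast cell genes gave a measure of the harvest beside the macrophage genes. Of 10 tested mast cell markers, 3 rose and 0 fell in knockout cells and 2 rose and 0 fell in wild-type cells after coculture, and without the cocultured pair of slide 4 it was 4 of 9 and 3 of 9. Hdc, which makes histamine, averaged 5.39 ± 0.668 (SD, n = 3) in knockout cocultured cells and 1.65 ± 0.831 (SD, n = 4) in knockout BMMCs, a rise of 3.74 (adjusted p = 0.000573). Hpgds, which makes prostaglandin D, rose by 2.23 (adjusted p = 0.000219) in knockout and 2.0 (adjusted p = 0.000344) in wild-type cells. H2-Ab1, an MHC class II chain of antigen-presenting cells, fell by 1.47 (adjusted p = 0.0459) in knockout and 2.05 (adjusted p = 0.0101) in wild-type cells and was the only 1 of 7 tested dendritic cell and MHC class II markers to pass. Without the slide 4 pair its knockout difference was no longer called (-1.35, adjusted p = 0.0597), and 1 of 7 rose and 1 fell in wild-type cells. Of 4 tested neutrophil markers 0 passed in either genotype, and Ctsg, cathepsin G, had a difference of 2.09 (adjusted p = 0.0736) in knockout cells, and 2.55 (adjusted p = 0.0421) without that pair. Of 5 tested lymphocyte markers, 1 rose in each genotype, Ncr1, a receptor of natural killer cells, at least 1.44-fold higher in knockout and 2.13-fold higher in wild-type cocultured cells (adjusted p = 0.0102 and 0.00222), and the counts were the same without the pair.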
